A study of Mus musculus with 2 samples.

Results

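Limb mesenchyme, the loose embryonic tissue beneath the limb ectoderm, is patterned by a small group of transcription factors, and 9 of their genes (Prrx1, Prrx2, Shox2, Alx4, Twist1, Twist2, Hand2, Lmx1b and En1) are described here in the mouse limb at embryonic day 14.5. The genes were chosen by name, and each name matched a single Ensembl identifier among the 43346 in the tables of genes, with 24 transcripts among them in the tables of transcripts. The study profiled total RNA in 2 libraries of 1 group, biological replicates 1 and 2, from embryos of strain B6NCrl with no treatment or genetic change named in the labels. Each sample held 4 limbs, the collection days differed, and 10 ng of RNA over 200 nt with added spike-in RNAs went into each library. The labels give the sex as pooled male and female, and they repeat the donor, pup and pregnancy numbers for both samples, so an SD over n = 2 covers the spread between these samples, which may be technical. A limb at this age holds skin, muscle, skeleton and blood beside mesenchyme, and all were profiled at once.

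The members work along different axes of the limb. Prrx1 and Prrx2 encode paired-type homeodomain proteins found throughout limb mesenchyme, and the bHLH proteins of Twist1 and Twist2 act in limb bud outgrowth and in dermis and bone precursors. Hand2, also a bHLH gene, marks the posterior limb bud and lies upstream of Sonic hedgehog, while the homeobox gene Alx4 acts in the anterior limb bud, where it restrains that signal. Lmx1b, a LIM homeobox gene, gives dorsal identity to mesenchyme, En1 gives ventral identity through the ventral ectoderm, and the homeobox gene Shox2 is required for the proximal limb skeleton.

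The set holds 2 paralog pairs, and similar sequence could make reads hard to assign between them, so the most alike coding stretches are shown first. The 180 coding bases of highest identity between Prrx1-201 (mm10, minus strand, from chr1:163257888-163261964, which includes an intron) and Prrx2-201 (plus strand, from chr2:30878467-30879546, with an intron) were 81.1% identical, with 34 differing bases, in capitals:
Prrx1-201: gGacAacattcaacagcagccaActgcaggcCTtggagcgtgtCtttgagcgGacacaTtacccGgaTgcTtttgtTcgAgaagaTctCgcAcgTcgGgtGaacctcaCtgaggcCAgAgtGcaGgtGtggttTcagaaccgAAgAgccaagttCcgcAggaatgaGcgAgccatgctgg
Prrx2-201: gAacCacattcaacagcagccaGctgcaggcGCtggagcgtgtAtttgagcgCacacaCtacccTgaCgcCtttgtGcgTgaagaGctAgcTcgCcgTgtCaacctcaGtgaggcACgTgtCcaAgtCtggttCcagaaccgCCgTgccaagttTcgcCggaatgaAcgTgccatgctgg
The longest run of identical coding bases between these transcripts was 19 bases.

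In the corresponding 180 bases of Twist1-201 (plus strand, chr12:33958298-33958477) and Twist2-201 (plus strand, chr1:91801809-91801988), 88.9% were identical and 20 differed, again in capitals:
Twist1-201: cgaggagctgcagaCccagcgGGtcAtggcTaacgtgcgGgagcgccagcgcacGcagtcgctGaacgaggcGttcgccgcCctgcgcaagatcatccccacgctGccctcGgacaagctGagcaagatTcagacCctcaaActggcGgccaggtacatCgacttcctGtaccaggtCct
Twist2-201: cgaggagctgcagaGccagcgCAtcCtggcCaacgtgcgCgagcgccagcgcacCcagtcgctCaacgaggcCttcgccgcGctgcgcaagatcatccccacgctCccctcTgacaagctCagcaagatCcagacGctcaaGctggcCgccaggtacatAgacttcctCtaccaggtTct
Here the longest identical run was 23 bases. The tables give a posterior standard deviation of the count, which is above 0 where reads were shared among identifiers, and it was 0 in both libraries for Prrx1, Prrx2 and Twist1. For Twist2 it was 5.32 counts in replicate 1 and 5.36 in replicate 2, and these counts were shared with an overlapping antisense gene (described with the neighbouring genes), not with Twist1.

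The libraries held 34193161 and 32879425 expected counts in replicates 1 and 2, of which spike-ins took 5.29% and 5.20%. All 6 genes used to check the label (Tbx5, Tbx4, Pitx1, Hoxa11, Hoxa13 and Hoxd13, regulators of limb development) were present, at means of 13.7 to 56.3 TPM. TPM is a level scaled by transcript length and library size, so values of different genes can be set side by side within a library.

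All 9 members reached 1 TPM in both libraries, against 34.0% of all Ensembl genes and 61.4% of 21461 nuclear protein-coding genes. Their levels spanned 43.1-fold in replicate 1 and 44.2-fold in replicate 2 from Alx4 to Prrx1. The 4 highest genes, the Prrx and Twist pairs, held 85.8% and 84.98% of the summed TPM of the 9.

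The values of Prrx1 in replicates 1 and 2 were 87.0 and 102 TPM, a mean of 94.3 ± 10.3 TPM (SD, n = 2), above 93.1% of nuclear protein-coding genes. Prrx2 stood at 72.6 and 87.8 TPM, with a mean of 80.2 ± 10.8 TPM. Prrx1 was above Prrx2 within each library, but the ranges of the genes overlapped, because Prrx2 in replicate 2 exceeded Prrx1 in replicate 1. Twist2 stood at 62.9 and 62.0 TPM, and its mean of 62.5 ± 0.629 TPM had the smallest SD of the 9 relative to the level. Twist1 stood at 53.9 and 63.6 TPM, a mean of 58.7 ± 6.90 TPM. The order of the Twist genes differed between libraries, so their levels could not be told apart at this spread.

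Shox2 came next, at 28.1 and 32.0 TPM (mean 30.015 ± 2.74), below every value of the Prrx and Twist genes and above 77.8% of nuclear protein-coding genes. The posterior gene Hand2 stood at 7.93 and 11.01 TPM, with a mean of 9.47 ± 2.18 TPM. Lmx1b, the dorsal gene, stood at 4.84 and 6.42 TPM (mean 5.63 ± 1.12). These genes were close to the middle of the protein-coding genes, of which 58.2% lay below Hand2 and 51.4% below Lmx1b. The ventral gene En1 stood at 3.03 and 4.00 TPM (mean 3.52 ± 0.686), and the anterior gene Alx4 was lowest, at 2.02 and 2.30 TPM (mean 2.16 ± 0.198). From Prrx2 to Twist2 and from Twist1 downward, both values of each gene lay above both values of the next. With 2 values against 2 no exact test can go below p = 0.33, so the order is a description. In a whole limb, fewer cells of a type and less RNA per cell cannot be told apart.

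**Figure D1:**
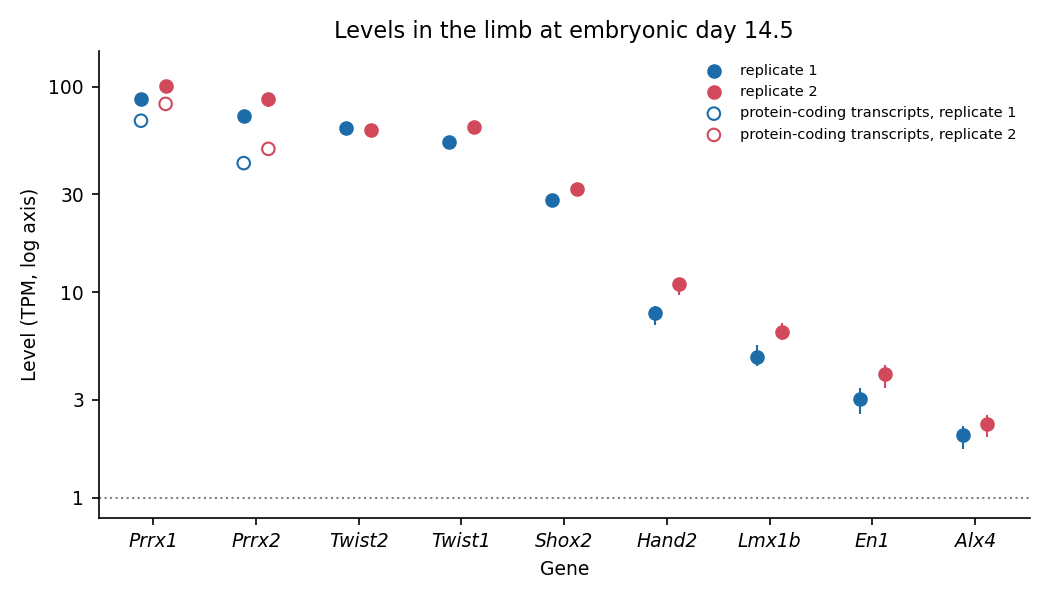
Level of each gene in TPM (log axis) in replicate 1 (blue) and replicate 2 (red), ordered by mean, with the credibility interval that the deposited tables give (vertical lines, whose credibility level no source used here gives). Open circles show the protein-coding transcripts of Prrx1 and Prrx2 alone. The Prrx and Twist genes lie between 53.9 and 102 TPM, and Hand2, Lmx1b, En1 and Alx4 at 11.01 TPM or less.

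Genes that act as counterparts were set against each other within each library, on log2(TPM + 0.1), which slightly understates ratios of the lowest genes. Prrx1 exceeded Prrx2 by a log2 ratio of 0.26 in replicate 1 and 0.21 in replicate 2, a mean of 0.23 ± 0.04 (SD, n = 2). Twist1 over Twist2 was −0.22 and 0.04, a mean of −0.09 ± 0.18, so the sign differed between the libraries. Dorsal Lmx1b exceeded ventral En1 by 0.66 and 0.67 (mean 0.66 ± 0.01), which was 1.58-fold and 1.59-fold. The counting error of En1, with 176 and 217 counts, is wider than the difference between these ratios, so their closeness shows no constancy. Posterior Hand2 exceeded anterior Alx4 by 1.92 and 2.21 (mean 2.07 ± 0.20), or 3.79-fold and 4.63-fold. No test was made of these ratios, which rest on 2 libraries.

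The transcripts behind these levels differed most for Prrx1. Its gene lies on chromosome 1 from 163245119 to 163313710 on the minus strand (mm10), and 4 of its 5 transcripts held more than 10% of its TPM. Prrx1-201, with a coding sequence of 245 codons, held 39.6% in replicate 1 and 38.9% in replicate 2 (mean 39.3 ± 0.453). Prrx1-204, with 200 codons, held 21.02% and 21.2%, and Prrx1-202, with 217 codons, held 18.2% and 21.3%. The leading transcript was thus the same in both libraries, while the order of the next transcripts was not. Prrx1-205, which the reference annotation types as a processed transcript without a coding sequence, held 18.9% and 16.0%.

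The coding forms share their first 599 bases and differ in the end of the protein, which is why their 3-prime coding ends are shown, with the last 30 shared bases in lower case and the bases of each form in capitals (minus strand, stop codon left out):
Prrx1-201: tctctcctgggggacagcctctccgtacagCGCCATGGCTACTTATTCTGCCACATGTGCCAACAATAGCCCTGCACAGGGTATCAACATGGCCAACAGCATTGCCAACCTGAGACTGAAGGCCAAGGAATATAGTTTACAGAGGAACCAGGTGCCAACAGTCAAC
Prrx1-202: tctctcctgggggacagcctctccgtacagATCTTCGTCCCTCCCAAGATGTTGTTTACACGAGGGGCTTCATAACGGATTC
The 136 own bases of Prrx1-201 come from the last exon (chr1:163248261-163248396). The 52 own bases of Prrx1-202 come from an alternative exon of 72 bases (chr1:163253977-163254048) that Prrx1-201 skips. Prrx1-204 reads on past the end of the preceding exon, adds 1 coding base and stops. As background, the longer form is known to end in the conserved OAR tail of paired-type homeodomain proteins, which the shorter one lacks.

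Prrx1-201 stood at 34.4 and 39.5 TPM in replicates 1 and 2, and Prrx1-202 at 15.8 and 21.6 TPM. Between these coding forms the one with the alternative exon took 31.5% and 35.4%, a mean of 33.4 ± 2.76% (SD, n = 2). With Prrx1-205 taken to hold that exon too, Prrx1-202 and Prrx1-205 together took 48.4% and 49.0% of the 3, a mean of 48.7 ± 0.423%. Whether Prrx1-205 contains the exon is not shown here. Only if Prrx1-205 does contain it would the share of the alternative exon depend on whether this noncoding transcript is counted with the coding one. Prrx1-204 was left out of both shares, although its read-through exon (chr1:163252866-163257942) spans the same 72 bases.

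Prrx2 (chromosome 2, 30834972 to 30881251, plus strand) carried a larger part of its TPM outside coding transcripts. Prrx2-201, with 247 codons, held 58.2% in replicate 1 and 52.4% in replicate 2 (mean 55.3 ± 4.09). Prrx2-203 and Prrx2-204, typed as retained introns and 678 and 486 nt long, held 27.7% and 27.0%, and 13.6% and 16.1%. Because TPM is per length, these short transcripts weighed more in TPM than in counts, where they took 16.1% and 16.2%, and 5.28% and 6.46%, of the expected counts of the gene. Noncoding transcripts together made up 41.3% and 43.1% of the Prrx2 level and 21.3% and 18.5% of that of Prrx1. Of the other 7 genes only Lmx1b has a noncoding transcript listed, at 0 TPM in both libraries. For the rest a share of 0% was fixed by the annotation and is not a measurement. Prrx2-202, a minor coding transcript, differed between the libraries, at 0.33 and 3.92 TPM from 7.37 and 81.7 expected counts, but its deposited credibility intervals overlapped.

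Counting protein-coding transcripts alone, a choice made after the values were seen, placed Prrx1 at 68.5 and 82.7 TPM and Prrx2 at 42.6 and 49.96 TPM. The log2 ratio of Prrx1 over Prrx2 was then 0.71 ± 0.03 (SD, n = 2) in place of 0.23, or 1.61-fold and 1.65-fold, and the ranges of the genes no longer overlapped. On that count Prrx2 lay below all values of Twist1 and Twist2, so its second place among the members rests on the transcripts typed as retained introns.

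The other members had a dominant transcript. In mm10, Twist2 lies on chromosome 1 from 91801461 to 91848028 and En1 on chromosome 1 from 120602418 to 120607992, both on the plus strand. Twist1 (chromosome 12, 33957671 to 33959829), Hand2 (chromosome 8, 57320983 to 57324633) and Alx4 (chromosome 2, 93642384 to 93681339) are on the plus strand too. Lmx1b (chromosome 2, 33560965 to 33640511) and Shox2 (chromosome 3, 66971727 to 66981771) are on the minus strand. Twist1-201, Hand2-201 and En1-201, with 206, 217 and 401 codons, were the transcripts listed for their genes. Twist2-201 held 98.5% and 98.1%, and both Twist2 transcripts code for 160 codons. Lmx1b-201 (372 codons) held 95.4% and 96.1%, and Alx4-201 (399 codons) held 95.03% and 99.1%. For Shox2, Shox2-203 led with 88.4% and 86.4%, and the annotation marks its coding sequence as incomplete. Shox2-201, the form with 331 codons, held 10.8% and 11.3%. In all 9 genes the leading transcript was typed as protein-coding and was the same in both libraries, and 3 of the 24 transcripts were at 0 TPM in both.

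**Figure D2:**
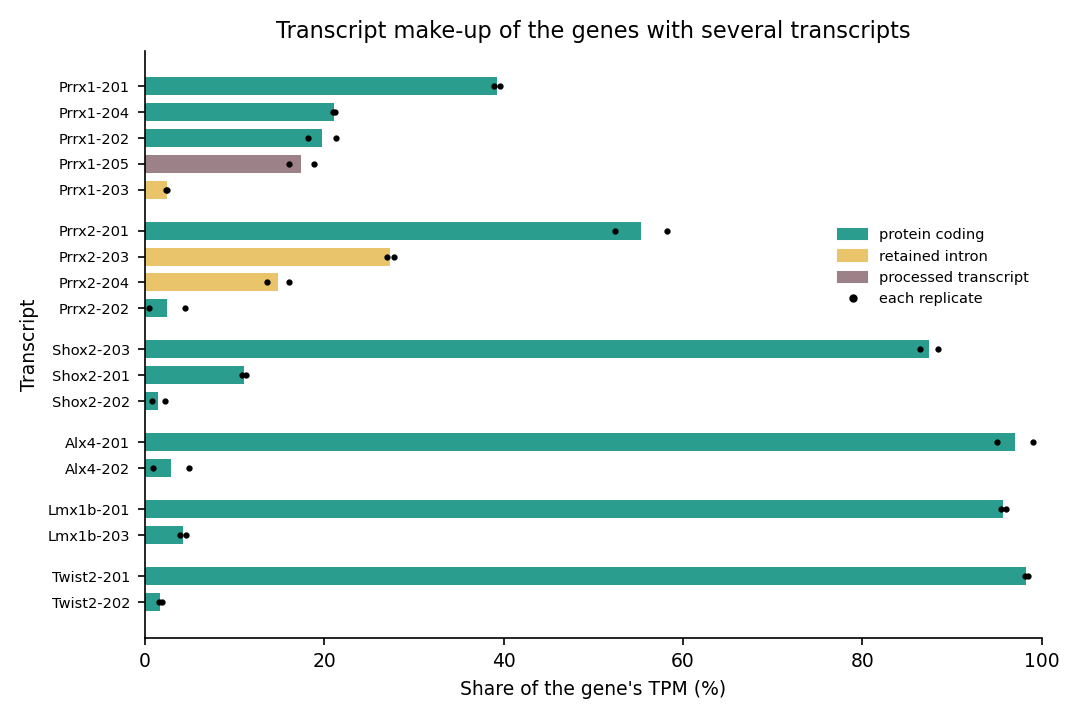
Share of the gene's TPM held by each transcript (bars, mean of the libraries in percent; points, each replicate) for the 6 genes with several transcripts, leaving out transcripts at 0 TPM in both libraries. Prrx1 is spread over 3 coding transcripts and a processed transcript, Prrx2 has retained-intron transcripts at 27.7% and 27.0% and at 13.6% and 16.1%, and the leading transcripts of Shox2, Alx4, Lmx1b and Twist2 hold 86.4% or more.

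Most members share their locus with other annotated genes, and no source used here gives the strand setting of the counting, so reads of genes on opposite strands may not be separable. Within 5000 bases of the members the annotation placed 11 genes with an entry in the tables, 9 of which overlapped a member. Of the 9 members, 6 had an overlapping gene on the opposite strand, and Twist1 and En1 had no gene within that distance. Hand2os1, a long noncoding RNA gene that runs antisense through Hand2 (chromosome 8, 57281117 to 57324233), stood at 21.8 and 29.9 TPM, above Hand2 itself, from 290 and 367 counts. C130021I20Rik, an antisense gene whose start lies 682 bases from the annotated start of Lmx1b, stood at 15.3 and 19.4 TPM, against 4.84 and 6.42 TPM of Lmx1b. In both loci the noncoding partner was thus higher than the member per length in both libraries.

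Within the introns of Prrx1, the noncoding genes Gm26523 and Gm37644 on the same strand stood at 12.5 and 18.1 TPM and at 3.31 and 3.86 TPM, and antisense Gm20471 at 3.30 and 6.37 TPM. Whether their reads belong to unspliced Prrx1 RNA was not tested. At Twist2, antisense Gm29100 stood at 1.5 and 1.55 TPM and Gm29101, inside its intron, at 4.31 and 5.37 TPM. Ext2, a heparan sulfate enzyme gene that overlaps Alx4 by 20312 bases, stood at 88.4 and 87.8 TPM, far above Alx4. Rsrc1, a splicing-related gene that overlaps the start of Shox2 by 382 bases, stood at 31.2 and 31.3 TPM, close to Shox2. Asb6, 4639 bases from Prrx2 and not overlapping it, stood at 22.6 and 24.2 TPM.

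Estimated reads were shared at 3 of the loci. Hand2 shared reads with ENSMUSG00000100348, an identifier with no entry in the reference annotation used here. The counts were 389.56 and 504.53 for Hand2 and 49.44 and 38.47 for that identifier, and only their sums, 439 and 543, were whole. Twist2 and Gm29100 likewise summed to 1954 and 1810 counts, and Shox2 and Rsrc1 to 3372 and 3458. The posterior standard deviation was small beside the counts, at 1.90% of the count of Hand2 in replicate 1, 0.295% for Twist2 and 0.0528% for Shox2. Gm29100 and Rsrc1 lie on the opposite strand to the member they shared reads with. Hand2os1, Ext2 and Gm20471 also overlap a member from the opposite strand, but their posterior standard deviation was 0 in both libraries. Whether strand was used in the counting was not tested.

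The start regions of Lmx1b and Hand2 are shown because a noncoding gene on the opposite strand, measured above, is annotated over part or all of the bases before the RefSeq start. The RefSeq start of Lmx1b (33641098) lies upstream of the end of the gene in the annotation used for the distance above (33640511), and C130021I20Rik begins upstream of both without crossing them. The RefSeq promoter table (GRCm38.p6, the assembly of mm10) had an entry for 8 of the 9 genes. The stretches are the 250 bases before the RefSeq start. For Lmx1b (minus strand, chr2:33641099-33641348) the 156 bases in capitals lie in an exon of C130021I20Rik on the other strand:
Lmx1b: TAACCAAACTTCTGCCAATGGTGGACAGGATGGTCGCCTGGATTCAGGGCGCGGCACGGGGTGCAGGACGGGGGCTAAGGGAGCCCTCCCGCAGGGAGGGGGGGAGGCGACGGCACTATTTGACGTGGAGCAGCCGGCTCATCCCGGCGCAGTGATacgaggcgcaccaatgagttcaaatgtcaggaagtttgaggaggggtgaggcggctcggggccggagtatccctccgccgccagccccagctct
For Hand2 (plus strand, chr8:57320733-57320982) all 250 bases lie in annotated exons of Hand2os1, and the capitals mark matches to CANNTG, the core of the E-box bound by bHLH proteins, and to TAATTA, a core of sites bound by homeodomain proteins:
Hand2: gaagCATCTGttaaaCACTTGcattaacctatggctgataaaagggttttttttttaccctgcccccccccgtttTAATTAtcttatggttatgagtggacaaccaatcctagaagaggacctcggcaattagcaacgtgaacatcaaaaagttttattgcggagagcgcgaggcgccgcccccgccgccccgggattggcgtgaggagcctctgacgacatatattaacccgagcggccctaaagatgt

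Those motifs were counted in the 300 bases around the start (250 before and 50 after) of the 8 genes. Both read the same on either strand, and no match to one overlapped a match to the other. CANNTG occurred in 3 of 8 (En1, Hand2 and Lmx1b), against 72.3% of 32851 promoters of that length. TAATTA occurred in 2 of 8 (Hand2 and Prrx1), against 5.29% of promoters. TATAAA, counted on both strands, occurred in Shox2 and Twist1, against 13.6% of promoters. The 8 windows had a median of 23.5 CpG dinucleotides, with a range from 6 in Prrx1 to 28 in Prrx2, against a median of 7 over all promoters. Prrx1 alone lay below that median. These are counts of letters in the windows and say nothing about binding.

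Most members were somewhat higher in replicate 2. This compares 1 library with 1 library, has no replicate check and was given no p-value, and the intervals below are 95% Clopper-Pearson intervals that cover counting error only. On log2(TPM + 0.1), 8 of 9 members were above 0, as were 65.4% of the 15307 genes whose mean level reached 1 TPM. The median log2 ratio of replicate 2 over replicate 1 was 0.24 for the members, with a range of −0.02 to 0.47, and 0.07 for all genes tested, of which 95% lay between −0.66 and 0.74. Levels were higher in replicate 2 by 25% or more for 3 of 9 members, Hand2, Lmx1b and En1, against 12.4% of genes, and lower by the same factor for 0 of 9, against 7.43%. At 1.1-fold, 8 of 9 were higher, against 35.9% of genes, and 0 of 9 lower, against 15.8%. At 1.5-fold, 0 of 9 were higher, against 4.00%, and 0 of 9 lower, against 2.95%. Each member's ratio thus lay inside the range that held 95% of genes.

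Hand2, Lmx1b and En1 had the largest ratios, but their intervals overlapped those of Prrx2 and Twist1. The interval of Alx4, the lowest of the 9 in level, overlapped theirs as well, so the counts do not set Alx4 apart. Hand2 was higher by 0.47 on the log2 scale (interval 0.27 to 0.66), and 0.40 if its reads are summed with the identifier that shares them. Lmx1b was higher by 0.40 (0.23 to 0.57) and En1 by 0.39 (0.10 to 0.68). The En1 interval was wide because it rests on 176 and 217 counts. The ratios of Prrx2, Twist1, Prrx1 and Shox2 were 0.27, 0.24, 0.22 and 0.19, with intervals above 0. For Alx4 the ratio was 0.18, with an interval of −0.08 to 0.44 from 243 and 255 counts, so no difference was detectable at this depth. Twist2 alone was below 0, at −0.02 (−0.12 to 0.08), and its interval did not overlap that of its paralog Twist1 (0.15 to 0.33).

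**Figure D3:**
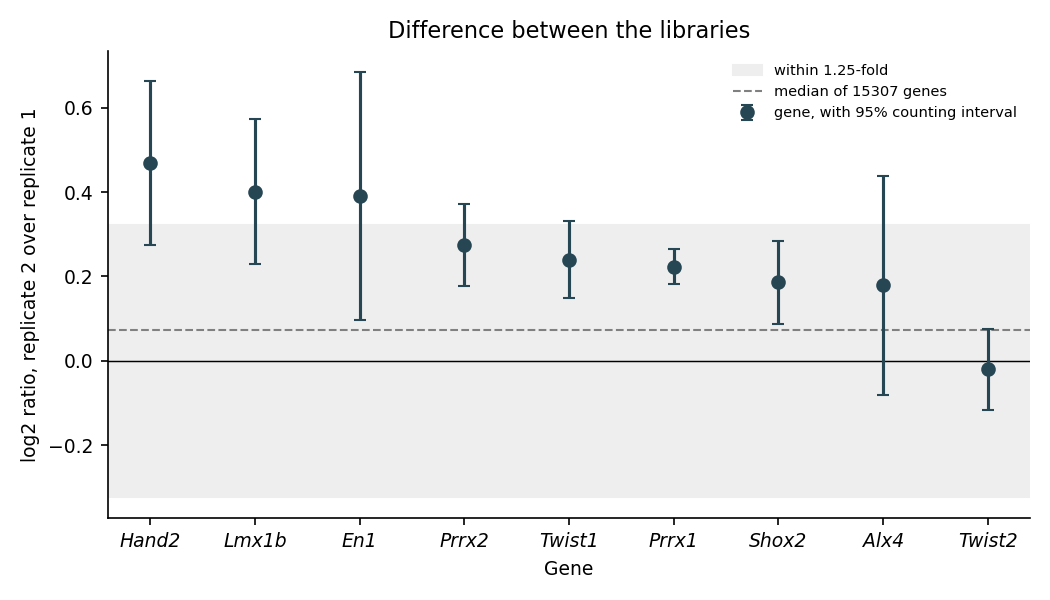
Log2 ratio of replicate 2 over replicate 1 for each gene, with 95% counting intervals (bars). The grey band marks differences smaller than a factor that is 25% above 1 and the dashed line the median of 15307 genes, 0.07. Hand2, Lmx1b and En1 lie above the band at 0.47, 0.40 and 0.39, and Twist2 lies at −0.02.

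Other tissues in the samples differed between the libraries as well. The 6 limb regulators used to check the label were all higher in replicate 2, with a summed level of 154 and 203 TPM. The 6 skeletal muscle markers were all lower, at 1658 and 1093 TPM summed, as were the 6 red blood cell markers, at 25920 and 17224 TPM, and the 6 epidermal markers, at 1454 and 1256 TPM. Of 6 dermal and loose connective tissue markers 5 were lower, at 5801 and 5186 TPM, while 3 of 6 cartilage markers were higher and 3 lower, with sums of 917 and 925 TPM that were mostly Col2a1. The 5 endothelial markers summed to 173 and 170 TPM. The part of these differences in the ratios of the members was not tested. Hand2 is also known in heart and sympathetic neurons, and markers of these were low. The 4 heart markers summed to 3.99 and 4.73 TPM, and the sympathetic neuron markers Th and Dbh to 1.57 and 0.87 TPM. Of 5 markers of neurons, 2 reached 1 TPM in both libraries, and the list summed to 10.6 and 10.5 TPM, and 0 of 4 liver markers did, with 1.62 and 1.56 TPM.

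The ratios moved with the scaling of the libraries. The count-based scalings differ from each other by a shift that is the same for every gene, but the step from TPM to counts is not: Prrx1 went from 0.22 to 0.24 with spike-in counts and Prrx2 from 0.27 to 0.21, so their order changed. The median of all genes was 0.00 with TMM, −0.01 with DESeq2 size factors, 0.03 with total counts and 0.06 with spike-in counts. The median of the 9 members lay 0.17 above that of all genes under TPM and 0.16 above it under the count-based scalings. With TPM and with counts, 8 of 9 members were above the median of all genes and Twist2 was below it. Among the count-based scalings neither result could change, because the shift is the same for every gene. En1 fell to 0.31 with DESeq2 size factors, under the 25% line, which left Hand2 and Lmx1b past it.

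**Figure D4:**
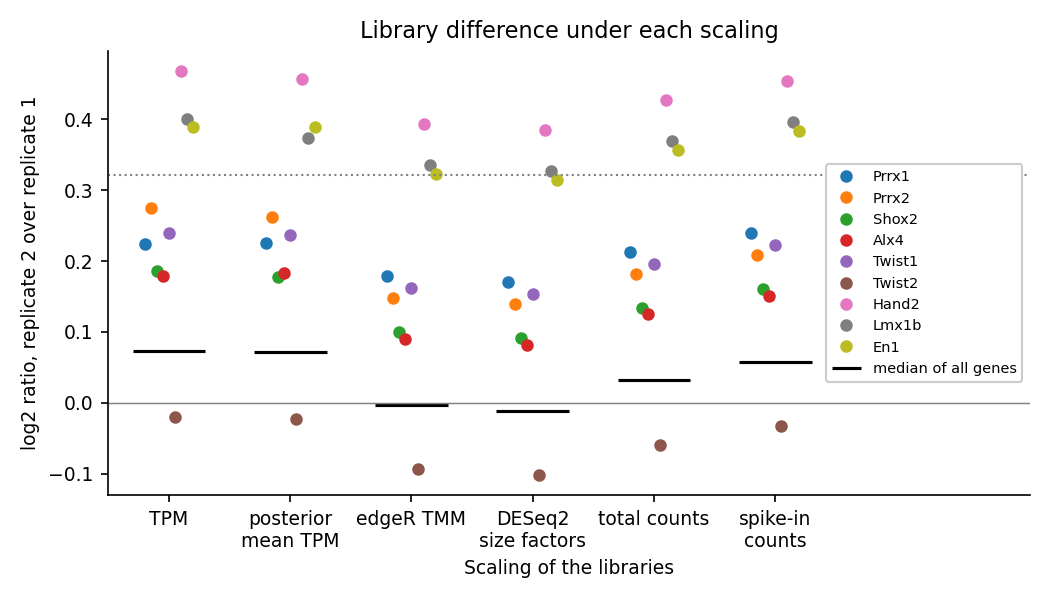
Log2 ratio of replicate 2 over replicate 1 of each gene (coloured points) under 6 scalings of the libraries, with the median of all genes (black bars) and the line for 25% higher (dotted). Among the 4 count-based scalings the points keep their distances from each other and from the median by construction. Twist2 lies below the median of all genes in all 6.

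The relatives of the members that were examined were low. Of 5 paralogs outside the set, 2 had at least 1 TPM in each library and 3 had less in each. Alx1 stood at 2.36 and 2.39 TPM, close to Alx4, and Hand1, the paralog of Hand2, had a mean of 1.28 ± 0.0424 TPM (SD, n = 2). Lmx1a, Prrxl1 and En2, genes with roles in the nervous system, stood at 0.29 and 0.39, 0.04 and 0.21, and 0.01 and 0 TPM.

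Partners and antagonists of the bHLH members were abundant. The E-protein genes Tcf4, Tcf3 and Tcf12, whose products pair with Twist and Hand proteins, stood at 173 and 187, 101 and 114, and 84.7 and 87.5 TPM. The genes of the ID proteins, which bind E proteins and keep them from DNA, were higher still for Id3, at 385 and 434 TPM, and Id2, at 233 and 256 TPM. Id1 stood at 142 and 152 TPM and Id4 at 10.3 and 11.6 TPM. All 7 of these genes were above Hand2 in both libraries, and all but Id4 were above Twist1 and Twist2. Of nuclear protein-coding genes, 58.2% lay below Hand2, 88.2% below Twist1 and 89.0% below Twist2.

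Cofactors of LIM homeodomain proteins were likewise well above Lmx1b. Ldb1 and Ldb2, which encode the proteins that bind LIM domains, stood at 73.1 and 83.9 TPM and at 37.6 and 46.4 TPM. Their stabilising partners Ssbp2, Ssbp3 and Ssbp4 stood at 128 and 149, 72.2 and 87.7, and 71.7 and 83.1 TPM, and Rlim, whose product marks LDB proteins for breakdown, at 25.1 and 26.7 TPM. All 6 were present at more than the level of Lmx1b in both libraries. Lmx1b itself lay above only 51.4% of nuclear protein-coding genes, so many other genes exceed it too.

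Signalling genes linked to the members covered a wide range. Wnt7a, the dorsal ectodermal signal upstream of Lmx1b that En1 represses ventrally, stood at 3.31 and 3.99 TPM, in the range of En1. Bmpr1a, a BMP receptor gene upstream of En1, stood at 55.1 and 55.4 TPM, and the ligand genes Bmp7, Bmp4 and Bmp2 at 22.0 and 25.6, 15.0 and 15.4, and 11.5 and 15.8 TPM. On the anterior-posterior axis Shh, the signal downstream of Hand2, had 3 counts in replicate 1 and 0 in replicate 2, which allows up to 3, beside 389.56 and 504.53 counts of Hand2. Gli3, whose repressor form and Hand2 oppose each other, stood at 32.3 and 39.4 TPM, the hedgehog receptor gene Ptch1 at 19.7 and 22.9 TPM, Gli1 at 12.2 and 14.8 TPM and the BMP antagonist gene Grem1 at 3.43 and 2.98 TPM. Hand2 was thus present with its early target near 0.

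Of 9 genes that are known downstream of these factors or in the tissues they shape, 8 reached 1 TPM in both libraries. Postn, a matrix gene of periosteum and connective tissue, was highest at 430 and 370 TPM, followed by the adhesion gene Cdh11 at 213 and 251 TPM and the FGF receptor gene Fgfr2 at 103 and 116 TPM. Nppb stood under 1 TPM, at 0.06 and 0.34. Of the 37 listed genes, 33 were higher in replicate 2, against 65.4% of the genes tested. The genes tested had means of 1 TPM or more, while the 37 include Lmx1a, Prrxl1, En2, Shh and Nppb, which lie below. A rise of 25% or more was seen in 4, against 12.4%, namely Bmp2 and, from levels under 1 TPM, Lmx1a, Prrxl1 and Nppb. Shh alone was lower by that factor, with 3 counts in replicate 1 and 0 in replicate 2, against 7.43% of the genes tested.

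**Figure D5:**
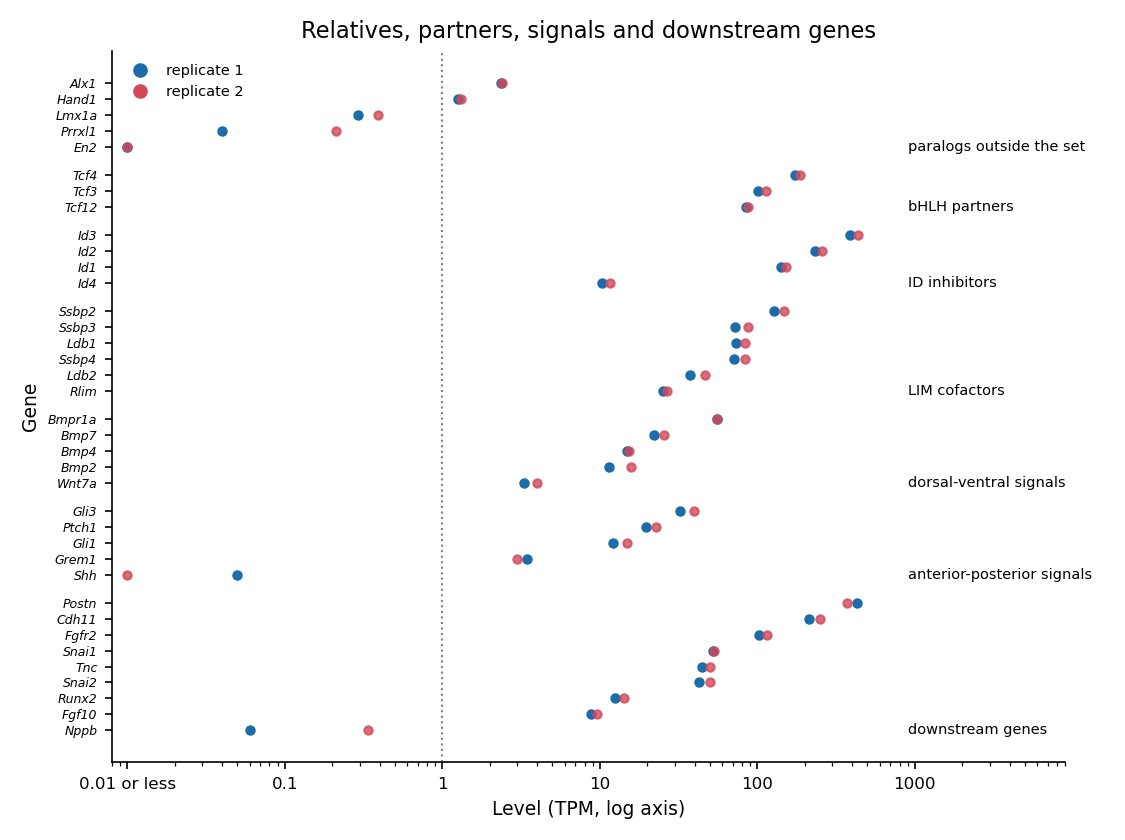
Level in TPM (log axis) of 37 related genes in replicate 1 (blue) and replicate 2 (red), by list, with 1 TPM marked by the dotted line and values of 0.01 TPM or less drawn at the left edge. The bHLH partners, ID inhibitors and LIM cofactors lie between 10.3 and 434 TPM, while Shh, En2, Prrxl1, Lmx1a and Nppb lie under 1 TPM.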

How the data were processed

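Total RNA of 2 limb samples was profiled, 1 library each, and both belong to 1 group. The authors deposited expected counts per gene and per transcript, estimated from alignments to the transcriptome of mm10 with GENCODE M4, per the labels and file headers. TPM values, also deposited by the authors, scale these counts by effective length and depth, and a posterior mean TPM stands beside them. The authors' tables of transcripts give the percent of a gene's TPM in each transcript. The deposited posterior standard deviation of the count and the credibility bounds of TPM are never negative and were read as a signal of estimation error. The program, its version and the strand setting were not stated in any source at hand.

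The 9 genes and all gene lists were chosen with earlier results of these data known. Symbols, types and positions came from GENCODE M21, which had an entry for 42462 of 43346 identifiers, and Drgx was matched under the older symbol Prrxl1. Ratios used log2(TPM + 0.1), computed here from deposited TPM, and the comparison of libraries used genes whose mean reached 1 TPM. Its intervals are Clopper-Pearson intervals of the ratio of counts (95%), moved to the TPM ratio. Other scalings used edgeR 4.0.16 (TMM) and DESeq2 1.42.0 (size factors) on rounded expected counts, total counts and spike-in counts. The steps ran in Python 3.11.15 with scipy 1.17.1 and were tested on simulated data. Named beside the members were all genes of lists of up to 6, otherwise the 3 highest and those under 1 TPM in both libraries, genes within 5000 bases of a member whose mean reached 1 TPM, and transcripts with a mean share of 10% or more. Some genes of the lists are not reported here and were left out of the list counts and sums. FPKM columns were not used, and no ranking among homeodomain genes was made. Sequences came from mm10 and from RefSeq (GRCm38.p6).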

Additional observations from a re-analysis of the deposited data

How the results depend on the processing

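Of the 48 alternative values of the pair ratios and of the counts of members, 40 stayed within the spread between the libraries or within 1.5 times the count, 7 moved and 1 changed sign. Some of these could not move. A pair ratio without 1 library lies within the SD by construction, so it can only stay or change sign. Counting protein-coding transcripts alone changes no pair but Prrx1 over Prrx2. The tally is therefore no measure of robustness. With protein-coding transcripts alone, an alternative chosen after seeing the data, the log2 ratio of Prrx1 over Prrx2 was 0.71. For Lmx1b over En1 it was 0.72 with posterior mean TPM, 0.55 with a pseudocount of 1 TPM and 0.68 with a pseudocount of 0.01 TPM, and for Hand2 over Alx4 it was 1.71 with a pseudocount of 1 TPM, which lowers ratios of low genes by construction. Leaving out 1 library gave 0.21 to 0.26 for Prrx1 over Prrx2, 0.66 to 0.67 for Lmx1b over En1, 1.92 to 2.21 for Hand2 over Alx4 and −0.22 to 0.037 for Twist1 over Twist2, which was positive without replicate 1. The count of members higher in replicate 2 was 8 at 1.1-fold and 0 at 1.5-fold. With a minimum of 5 TPM in both libraries, 6 members remained in place of 9. That was tallied as staying because it is just within 1.5 times the count. Of the 152 other alternative values, 135 stayed and 17 moved, and here too levels and transcript shares without 1 library could only stay. Of those that moved, 9 were levels. Scaling TPM to Ensembl nuclear genes alone, without spike-in RNAs and mitochondrial genes, raised the level of every member. For Prrx1 it gave 110 TPM in place of 94.3. Summing reads with the identifier that shares them was also chosen after seeing the data. No paired analysis was possible because the labels give 1 group. En1 and Alx4, with 176 to 255 counts, are limited most by depth.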
